A study of Mus musculus with 25 samples.

Results

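Named pseudogenes are gene copies whose symbol is that of a parent gene followed by -ps. They were chosen by symbol and count: every row whose symbol ended in -ps or in -ps and a number and that held at least 10 unique molecular identifiers (UMIs, each 1 captured transcript) over all libraries. The tables held 528 such symbols, and 311 of them passed, of 29244 gene symbols in all. These 311 pseudogenes held 85398 UMIs, or 0.131% of the 65063387 UMIs measured, with a median of 45 UMIs per pseudogene. The 16 pseudogenes just inside the threshold held 10 or 11 UMIs, and 28 symbols just outside it held 8 or 9. A parent symbol was a row of the tables for 256 pseudogenes, which shared 121 parents, and was not for the other 55.

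The study profiled mouse testis cells by Drop-seq, in which each transcript is counted at its 3′ end, after enzymatic or mechanical dissociation and in infertile strains. Wild-type (WT) mice were C57BL/6 (C57BL/6J in the study's methods), with 2 libraries of enzymatic dissociation (labelled replicates 1 and 2, aged 3 months 21 days and 4 months 2 days) and 9 of mechanical dissociation (replicates 3 to 11, aged 3 months 1 day to 9 months 14 days). All mutant testes were dissociated mechanically. The 6 Mlh3-/- libraries (2 months 21 days to 8 months 30 days) and the 2 Cul4a-/- libraries (1 month 18 days and 1 month 21 days) are both labelled as B6;129 (the methods write B6.129 for the Mlh3 line), so that genotype and background cannot be told apart against WT. The 2 CNP libraries (2 months 14 days and 2 months 16 days) carried the CNP eGFP BAC TRAP transgene on C57BL/6. Both Cul4a-/- and CNP mice were younger than those of every WT mechanical library, so for these strains age and genotype cannot be told apart either. The study's own sample list gives the ages of Cul4a-/- and CNP the other way round, and its numbers of barcodes for CNP 1 and CNP 2 are in the reverse order of the tables, which hold 992 and 3389. Sorted cells gave 1 library each: GFP-positive spermatogonia of mice labelled Pouf51-EGFP (a Pou5f1-EGFP reporter on B6;CBA in the methods) at 7 days, pooled from 5 litter mates and dissociated with enzymes, and primary spermatocytes, secondary spermatocytes and spermatids of WT mice at 2 months 21 days, dissociated mechanically and sorted by Hoechst staining.

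Most mammalian pseudogenes are processed: a messenger RNA was copied back into the genome, so the copy has no introns, often ends in the remains of a poly(A) tail and takes up whatever transcription its new position gives. Unprocessed pseudogenes arose by duplication of a gene with its exons, and a polymorphic or unitary pseudogene is a gene disabled in the species or strain. Highly transcribed housekeeping genes, the ribosomal protein genes foremost, have left the most processed copies. The testis is known for broad transcription, retrocopies included. In male meiosis the sex chromosomes are silenced during pachytene, and autosomal copies of X-linked genes that are used in germ cells are a known class. Where a copy is nearly identical to its parent, a 3′ read can align to both or to the wrong one.

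The pairs on which the results turn differ widely in how alike parent and copy are, and the sequences below show it over 90 bases of coding sequence, taken from the GENCODE vM21 transcripts on GRCm38. Each pair is written 5′ to 3′, with capitals marking every base at which parent and copy differ; a parent stretch was read from the spliced transcript and can cross an intron. Ppp1r2 encodes inhibitor 2 of protein phosphatase 1. Its most abundant copy, Ppp1r2-ps7 on the X chromosome (chrX:22462251-22462340, plus strand), differed from the parent (chr16:31254687-31258379, minus strand) at 17 of 90 bases. The copy Ppp1r2-ps9, also on the X (chrX:15110884-15110973, minus strand), differed from another coding stretch of the parent (chr16:31258411-31258500, minus strand) at 24 bases, and Ppp1r2-ps3 on chromosome 19 (chr19:30538928-30539017, minus strand) differed from the first parent stretch at 1 base.
Ppp1r2: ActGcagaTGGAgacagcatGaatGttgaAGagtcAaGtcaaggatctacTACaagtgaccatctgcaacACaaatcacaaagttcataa
Ppp1r2-ps7: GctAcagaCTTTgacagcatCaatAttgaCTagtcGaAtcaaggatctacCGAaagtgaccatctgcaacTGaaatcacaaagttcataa
Ppp1r2: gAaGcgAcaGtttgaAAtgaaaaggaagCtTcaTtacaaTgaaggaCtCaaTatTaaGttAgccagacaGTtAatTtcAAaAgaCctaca
Ppp1r2-ps9: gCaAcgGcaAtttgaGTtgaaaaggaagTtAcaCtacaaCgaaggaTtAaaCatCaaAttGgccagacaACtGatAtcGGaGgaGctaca
Ppp1r2-ps3: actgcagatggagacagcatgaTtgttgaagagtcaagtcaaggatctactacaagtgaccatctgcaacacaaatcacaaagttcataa

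Mdm4, an inhibitor of p53 on chromosome 1 (chr1:132991656-132991745, minus strand), has the copy Mdm4-ps on the X (chrX:128262757-128262846, plus strand), with 3 differences. Kif4, a kinesin of mitotic chromosomes on the X (chrX:100726561-100726650, plus strand), has Kif4-ps on chromosome 12 (chr12:101149184-101149273, plus strand), with 10. The β-tubulin gene Tubb4b on chromosome 2 (chr2:25222308-25222397, minus strand) has Tubb4b-ps1 on chromosome 5 (chr5:7180610-7180699, plus strand), with 2.
Mdm4: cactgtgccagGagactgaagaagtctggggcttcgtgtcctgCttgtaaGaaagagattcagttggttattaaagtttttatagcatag
Mdm4-ps: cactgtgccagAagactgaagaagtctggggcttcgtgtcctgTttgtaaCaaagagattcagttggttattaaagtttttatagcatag
Kif4: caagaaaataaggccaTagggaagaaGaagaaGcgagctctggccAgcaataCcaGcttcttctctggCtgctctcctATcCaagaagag
Kif4-ps: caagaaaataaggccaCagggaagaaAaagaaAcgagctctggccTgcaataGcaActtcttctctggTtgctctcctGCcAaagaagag
Tubb4b: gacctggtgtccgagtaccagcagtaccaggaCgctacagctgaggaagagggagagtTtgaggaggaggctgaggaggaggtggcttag
Tubb4b-ps1: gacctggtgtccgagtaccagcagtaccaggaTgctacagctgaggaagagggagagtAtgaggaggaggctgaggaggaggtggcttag

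The pairs of the strain and dissociation results are closer. Rps13 (chr7:116331550-116332434, minus strand), a protein of the small ribosomal subunit, and Rps13-ps1 (chr8:87048086-87048175, plus strand) differed at 2 bases of the stretch. The copy Tes3-ps (chr13:49494340-49494429, plus strand), whose parent symbol Tes3 was not in the tables, matched best the transcript of Dcun1d1 (chr3:35895620-35897473, minus strand), a gene for a cullin neddylation factor, with 1 difference. The coiled-coil gene Ccdc50 (chr16:27444581-27446267, plus strand) and Ccdc50-ps (chr4:100567108-100567197, minus strand) differed at 6 bases, and the translation initiation factor gene Eif1 (chr11:100320999-100321355, plus strand) and Eif1-ps1 (chr14:40006460-40006549, plus strand) at 1. Dynlt1-ps1 (chr6:135349408-135349497, minus strand) matched the dynein light chain gene Dynlt1c (chr17:6607133-6607571, plus strand) at every base, so that 1 sequence stands for both.
Rps13: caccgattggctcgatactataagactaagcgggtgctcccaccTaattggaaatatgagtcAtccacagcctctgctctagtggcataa
Rps13-ps1: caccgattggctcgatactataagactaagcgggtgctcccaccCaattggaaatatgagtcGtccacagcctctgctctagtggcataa
Dcun1d1: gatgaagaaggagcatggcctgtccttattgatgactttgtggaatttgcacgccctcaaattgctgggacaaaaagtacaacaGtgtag
Tes3-ps: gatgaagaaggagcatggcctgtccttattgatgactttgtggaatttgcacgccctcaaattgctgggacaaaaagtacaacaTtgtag
Ccdc50: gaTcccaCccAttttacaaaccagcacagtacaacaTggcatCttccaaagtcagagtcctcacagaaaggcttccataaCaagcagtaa
Ccdc50-ps: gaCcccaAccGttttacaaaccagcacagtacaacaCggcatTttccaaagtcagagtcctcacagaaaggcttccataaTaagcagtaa
Eif1: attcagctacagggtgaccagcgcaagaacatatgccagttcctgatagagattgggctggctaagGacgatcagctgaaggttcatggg
Eif1-ps1: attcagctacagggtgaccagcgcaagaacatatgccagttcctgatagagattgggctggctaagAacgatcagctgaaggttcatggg
Dynlt1-ps1: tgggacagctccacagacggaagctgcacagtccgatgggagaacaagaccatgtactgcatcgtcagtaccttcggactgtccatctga

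Over the whole alignable coding sequence, Ppp1r2-ps7 had 118 substitutions in 606 bases and 7 gaps, and Ppp1r2-ps9 had 113 in 384 aligned bases. Neither Ppp1r2-ps3 nor Ppp1r2-ps1 held a stop codon in the parent's frame, with 9 and 15 substitutions. Mdm4-ps had 64 substitutions in 1435 bases, 5 gaps that shifted the frame and 1 early stop. Among the selected copies aligned in this way, Kif4-ps had the most substitutions, 691 in 3644 bases, and the most gaps, 29. Rps13-ps1 had 2 substitutions in 456 bases and Tes3-ps 3 in 780, while Dynlt1-ps1 (342 bases) and Tpt1-ps3 (519 bases) had none. Of the 311 pseudogenes, 305 matched GENCODE by symbol: 241 were processed and 14 transcribed processed pseudogenes, 17 were unprocessed and 21 transcribed unprocessed, 4 were polymorphic, 2 transcribed unitary, 1 a processed transcript and 5 annotated as protein coding, Tes3-ps among these. The 6 without a match were Speer1-ps1, Smek3-ps, Cdc34-ps, Cox20-ps, Rplp2-ps1 and Gpr144-ps. A single exon made up 262 of them, and the median transcript was 523 bases long. The X chromosome carried 34, with 17493 UMIs, most of them from Ppp1r2-ps7, Ppp1r2-ps9, Mdm4-ps and Rps24-ps3. Another annotated gene overlapped 109 of them, and for 11 it had an exon on the same strand; Tes3-ps, for instance, lies in an intron of Cenpp on the opposite strand.

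Nearly every pseudogene was measured far below its parent. In the 256 pairs the pseudogene took a median of 0.58% of the pair's UMIs over all libraries, under 1% in 166 pairs, at least 10% in 15 and more than the parent in 4. Copies of ribosomal protein genes made up 161 of the pairs and took a median of 0.35%, against 1.69% for the other 95; Rpl31 had 16 copies, Rpl21 12 and Rps19 10. The 4 pairs led by the copy, picked out after the values were seen, were Kif4-ps at 84.2% of the pair (1506 UMIs against 283), Gpr137b-ps at 79.1% (117 against 31), Tmc4-ps at 78.5% (226 against 62) and Nlrp5-ps at 72.8% (211 against 79). Ppp1r2-ps7 held 7621 UMIs against 8720 of Ppp1r2, and the 17 pseudogenes with at least 1000 UMIs held 62.9% of all pseudogene UMIs.

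The share was larger in pairs of higher identity, a description over pairs that share parents and libraries. In 250 pairs with an alignment, identity had a median of 97.3% and ranged from 66.5% to 100%. The median share of the pair was 0.16% in 31 pairs below 90% identity, 0.24% in 49 pairs from 90% to 95%, 0.58% in 109 pairs from 95% to 99% and 2.07% in 61 pairs above. Among the copies with over 1000 UMIs, Ppp1r2-ps9 (66.5% identity), Ppp1r2-ps7 (76.1%) and Kif4-ps (79.5%) took large shares at low identity, as the plot of share against identity shows, while Ppp1r2-ps3 (97.5%) took 28.3% at high identity. Rps13-ps1 (99.6%) took 19.4% over all libraries but 0.0734% (12 of its 4904 UMIs) over the 23 libraries other than Cul4a-/-. For 11 pseudogenes with 4206 UMIs every stretch of 50 bases also occurred in the parent's transcript, so that within the annotated copy reads of the 2 loci cannot be told apart. In 33 pseudogenes with 12997 UMIs no such stretch occurred.

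**Figure D1:**
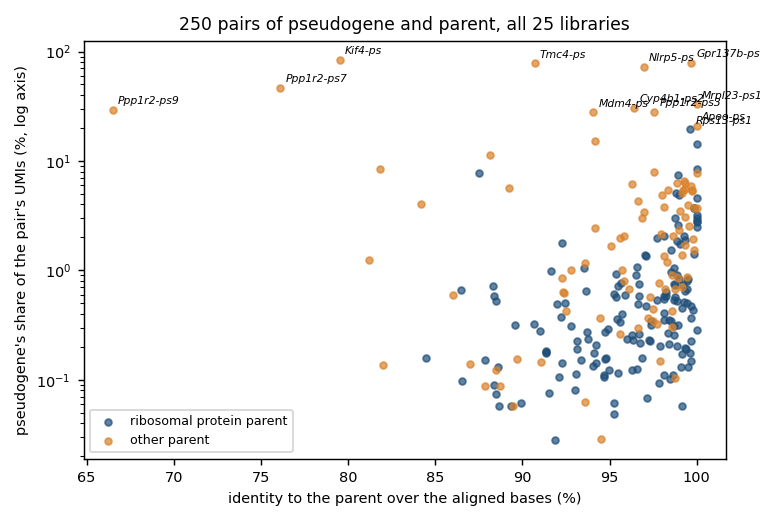
Share of a pair's UMIs taken by the pseudogene (%, log axis) against its identity to the parent over the aligned bases (%), for 250 pairs over all 25 libraries; each point is 1 pair, blue for ribosomal protein parents and orange for others. Most points lie under 1%, and Kif4-ps, Ppp1r2-ps7 and Ppp1r2-ps9 combine a high share with identities of 79.5%, 76.1% and 66.5%.

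Depth ranged from 107117 UMIs (sorted primary spermatocytes) to 9745302 UMIs (Cul4a 2) per library, and the deepest libraries, both Cul4a-/-, could bring a rare pseudogene over the 10-UMI threshold on their own. WT enzymatic 1, WT mechanical 3, Mlh3 1, Mlh3 2 and the 3 sorted meiotic and postmeiotic populations were sequenced on a MiSeq and the others on a HiSeq. Of 48081 distinct barcode sequences, 430 occurred in more than 1 library, and no pair of libraries shared more than 27. All 10 elongating spermatid markers were detected in WT mechanical libraries, at 3.03% to 5.42% of UMIs, against 3 to 6 of 10 at 0.05% to 0.11% in Mlh3-/- and 10 of 10 at 5.29% to 5.45% in Cul4a-/- and 1.77% to 3.14% in CNP. In the sorted spermatogonia 9 of 9 spermatogonial markers were detected, at 0.23% of UMIs. As 3′ tags, the targeted genes did not check the labels: Mlh3 was at 26.2 to 86.5 CPM (counts scaled to the same library total of UMIs) in Mlh3-/- against 38.8 to 72.9 in WT mechanical libraries, Cul4a at 54.5 and 49.0 in Cul4a-/- against 23.3 to 45.7, and the deleted parts are not given in the sources used here. The libraries are therefore named by their labels.

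Summed over all 311 pseudogenes, WT mechanical libraries lay at 872 to 1375 CPM with a median of 965 CPM, and WT mechanical 3 was the highest of them. WT enzymatic 1 and 2 lay at 1582 and 3076 CPM and the Cul4a-/- libraries at 1999 and 1882 CPM (1732 and 1646 CPM without Rps13-ps1, a copy described with that strain), all above every WT mechanical library. These libraries also held more UMIs per barcode than any WT mechanical library. WT enzymatic 1 and 2 held 357235 and 1118711 UMIs over 102 and 598 barcodes, and Cul4a 1 and 2 held 9691555 and 9745302 over 2767 and 2969. The highest WT mechanical library per barcode, WT mechanical 11, held 3829176 UMIs over 2989 barcodes. Most Mlh3-/- libraries also lay above it per barcode, and the part of this depth was not tested. Mlh3-/- libraries lay at 636 to 1144 CPM, within and below the WT range, and CNP at 753 and 730 CPM, below it. WT mechanical libraries held 1.01 to 1.71 UMIs of ribosomal copies per 100 UMIs of the parents, and Mlh3-/- libraries 1.49 to 2.91, which overlaps WT. The ratio was 4.75 and 4.36 in Cul4a-/-, 3.19 and 3.11 in CNP, 4.38 and 10.01 in WT enzymatic 1 and 2 and 4.65 in sorted spermatogonia, all outside the WT mechanical range. Without Rps13-ps1, an alternative chosen after seeing the data, the Cul4a-/- ratios were 2.92 and 2.64, above the WT mechanical range of 1.004 to 1.71. In CNP this came with low parents (3396 and 3957 CPM against 7014 to 21111 in WT mechanical libraries), and in Cul4a-/- with copies at 693 and 601 CPM (426 and 365 CPM without Rps13-ps1) against 95.6 to 213 CPM (95.3 to 212 CPM). Unnamed pseudogenes, 1666 other annotated pseudogene rows of at least 10 UMIs, were also higher in WT enzymatic and Cul4a-/-: 10173 and 14266 CPM in WT enzymatic, 8230 and 8103 CPM in Cul4a-/- and 5259 to 6316 CPM in WT mechanical libraries. In Mlh3-/- they lay at 2819 to 5213 CPM, below every WT mechanical library, unlike the named ones, which overlapped. In CNP they lay at 4707 and 4665 CPM, below as well.

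**Figure D2:**
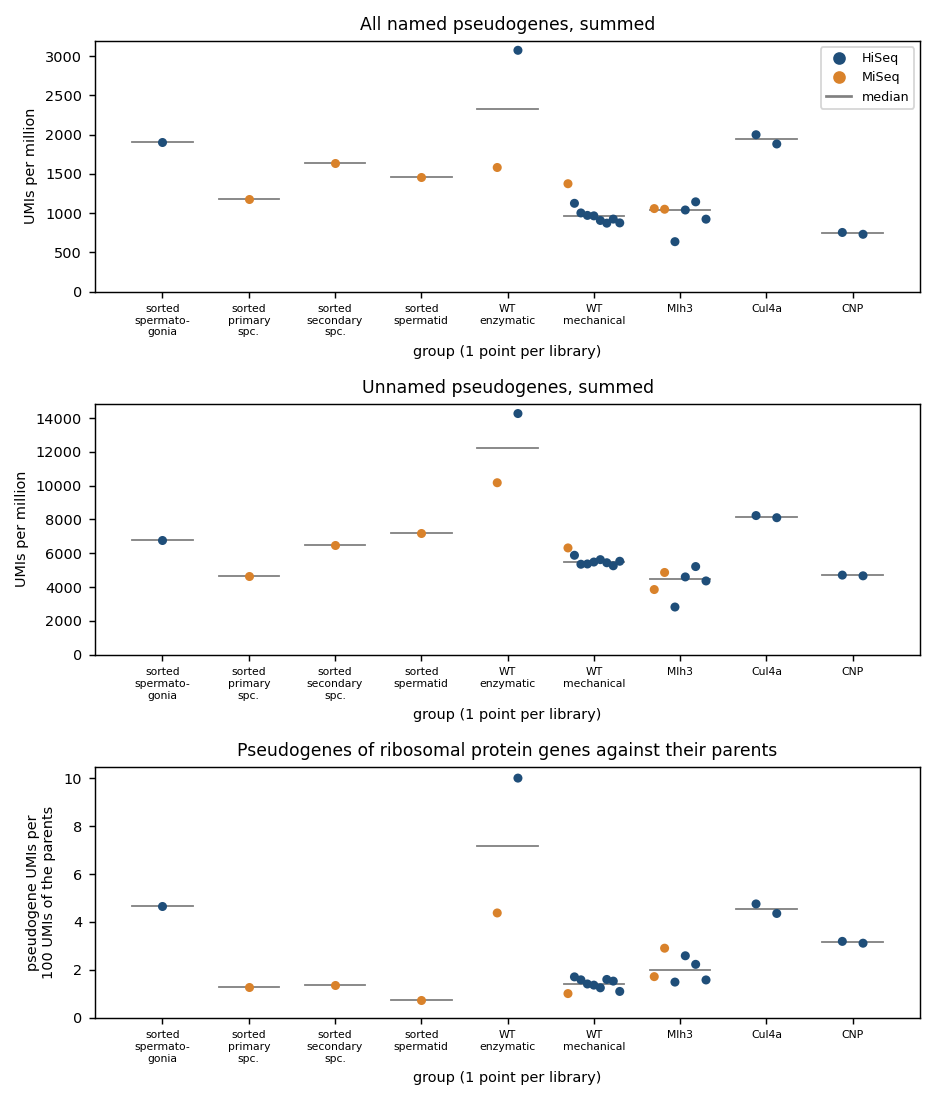
Summed level of the 311 named pseudogenes (top) and of the unnamed pseudogenes (middle), in CPM, and UMIs of ribosomal protein pseudogenes per 100 UMIs of their parents (bottom), with 1 point per library, coloured by sequencing platform, and a grey line at the group median (spc., spermatocyte). The 2 WT enzymatic and 2 Cul4a libraries lie above all 9 WT mechanical libraries in each panel.

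The Mlh3-/- comparison asks which pseudogenes are measured in testes whose meiosis fails. Ppp1r2-ps7 was at 116 to 208 CPM in the 9 WT mechanical libraries (median 142 CPM) and had no UMI in any of the 6 Mlh3-/- libraries. Ppp1r2-ps9 was at 53.3 to 71.5 CPM (median 60.6 CPM) and Ppp1r2-ps1 at 9.14 to 27.2 CPM (median 13.7 CPM), and neither had a UMI in Mlh3-/-. Against a floor of 3 counts over the 6 libraries these levels were at least 752-fold, 322-fold and 72.9-fold lower. Ppp1r2-ps3 remained at 2.76 to 12.8 CPM (median 10.7 CPM) against 39.4 to 149 CPM (median 56.5 CPM), a log2 fold difference of -3.56 ± 0.25 (SE; edgeR quasi-likelihood test, Benjamini-Hochberg adjusted over all genes tested, adjusted p = 1.10e-13). The parent Ppp1r2 overlapped between strains, at 96.7 to 199 CPM against 94.8 to 182 CPM, with a log2 fold difference of -0.79 ± 0.18 with TMM scaling (trimmed mean of M-values, adjusted p = 2.68e-04) that did not pass with library totals (-0.06, adjusted p = 0.761). Here and below, fewer cells of a type and less RNA per cell cannot be told apart, and the part of the spermatid markers, low in the same libraries, was not tested. The same libraries held mitochondrial transcripts at 4.55% to 13.4% of UMIs against 0.52% to 1.72% in WT mechanical libraries, all 7 Leydig markers at 0.13% to 0.92% against 0.009% to 0.039% and all 9 Sertoli markers at 0.07% to 0.33% against 0.015% to 0.030%. Spermatogonial markers (8 or 9 of 9 detected) held 0.00533% to 0.0375% against 0.00179% to 0.00355%. Macrophage markers (9 of 10) held 0.00743% to 0.0421% against 0.00233% to 0.00367%, and telocyte markers (9 of 9) 0.0186% to 0.0331% against 0.00186% to 0.00831%. Pachytene markers (10 of 10) held 0.567% to 0.992% against 0.527% to 0.708%, with Mlh3 4, 5 and 6 above every WT mechanical library. Leptotene and zygotene markers (10 of 11) held 0.0614% to 0.153% against 0.0522% to 0.0710%. The part of all these was not tested either.

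Of the 5 lower copies described next, 2 had a parent in the tables, and the difference between copy and parent was not tested. Mdm4-ps was at 37.3 to 66.1 CPM (median 46.3 CPM) in WT mechanical libraries, and 3 of 6 Mlh3-/- libraries had no UMI of it while the others were at 0.32 to 0.96 CPM. Its log2 fold difference was -7.29 ± 0.30 (adjusted p = 6.15e-20), and that of Mdm4 was -0.31 ± 0.13 (adjusted p = 0.0432) with TMM scaling. In CPM the direction of Mdm4 turns, since all Mlh3-/- libraries (105 to 158 CPM) lay above all WT mechanical libraries (81.1 to 101 CPM). Tubb4b-ps1 fell from 43.8 to 127 CPM (median 54.1 CPM) to 0 to 14.4 CPM (median 8.82 CPM), a log2 fold difference of -3.63 ± 0.30 (adjusted p = 3.92e-12), against -1.11 ± 0.23 for Tubb4b (adjusted p = 1.27e-04), which did not pass with library totals (-0.39, adjusted p = 0.0806). The receptor copy Vmn2r-ps54, of a vomeronasal receptor family, and Smek3-ps had no UMI in Mlh3-/- and were at 6.65 to 10.7 CPM and 6.99 to 12.2 CPM in WT mechanical libraries, at least 47.6-fold and 51.2-fold lower. Klk1b7-ps, of the kallikrein proteases, had 2 UMIs over the 6 Mlh3-/- libraries against 697 over the 9 WT libraries, where it lay at 10.96 to 46.6 CPM.

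In the opposite direction, Kif4-ps was at 44.2 to 70.3 CPM (median 47.8 CPM) in Mlh3-/- against 10.6 to 20.7 CPM (median 15.2 CPM), and every Mlh3-/- library lay above every WT library (log2 fold difference 1.06 ± 0.19, adjusted p = 1.92e-05). The parent Kif4 was low in both, at 2.24 to 10.1 CPM and 1.36 to 3.86 CPM (0.45 ± 0.37, adjusted p = 0.302), and passed with library totals (1.15, adjusted p = 9.12e-03). Rpl14-ps1, a copy of a large-subunit ribosomal protein gene, was at 14.98 to 31.7 CPM against 1.93 to 4.27 CPM, a log2 fold difference of 2.36 ± 0.22 (adjusted p = 7.83e-11), and here the parent rose too, by 1.63 ± 0.16 on the log2 scale (adjusted p = 4.14e-10). Rpl10a-ps1 and Rpl10a rose as a pair as well, by 2.80 ± 0.40 and 1.95 ± 0.26 (adjusted p = 3.98e-07 and 1.03e-07).

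Over the whole set, 55 pseudogenes were higher and 45 lower in Mlh3-/-, of 311 tested (17.7% and 14.5%), beside 28.7% higher and 32.2% lower of all 23168 genes tested. Of 1660 unnamed pseudogenes tested, 15.8% were higher and 19.6% lower. The part of low counts in these shares was not tested. Of the ribosomal copies 37 of 161 were higher and 6 lower, of the receptor and immune copies 0 of 9 higher and 7 lower, and of the others 18 of 141 higher and 32 lower. These counts include the 4 copies named by the selection rule itself, Rps13-ps1, Dynlt1-ps1, Tes3-ps and Ccdc50-ps, which are described without a test. The median log2 fold difference was 0.37, against 0.03 over all genes. The parent was also higher for 16 of the 55, lower for 1 and not called for 31; of the 45 lower ones the parent was lower for 15, higher for 3 and not called for 6, and the rest had no parent in the tables. Scaling by library totals in place of TMM moved the median of all genes by 0.69 (log2) and the split from 55 higher and 45 lower to 111 higher and 35 lower, and that of the 121 parents from 29 higher and 32 lower to 83 higher and 13 lower. Among the 149 pseudogenes with at least 10 UMIs in the WT mechanical libraries alone, 27 were higher and 41 lower.

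**Figure D3:**
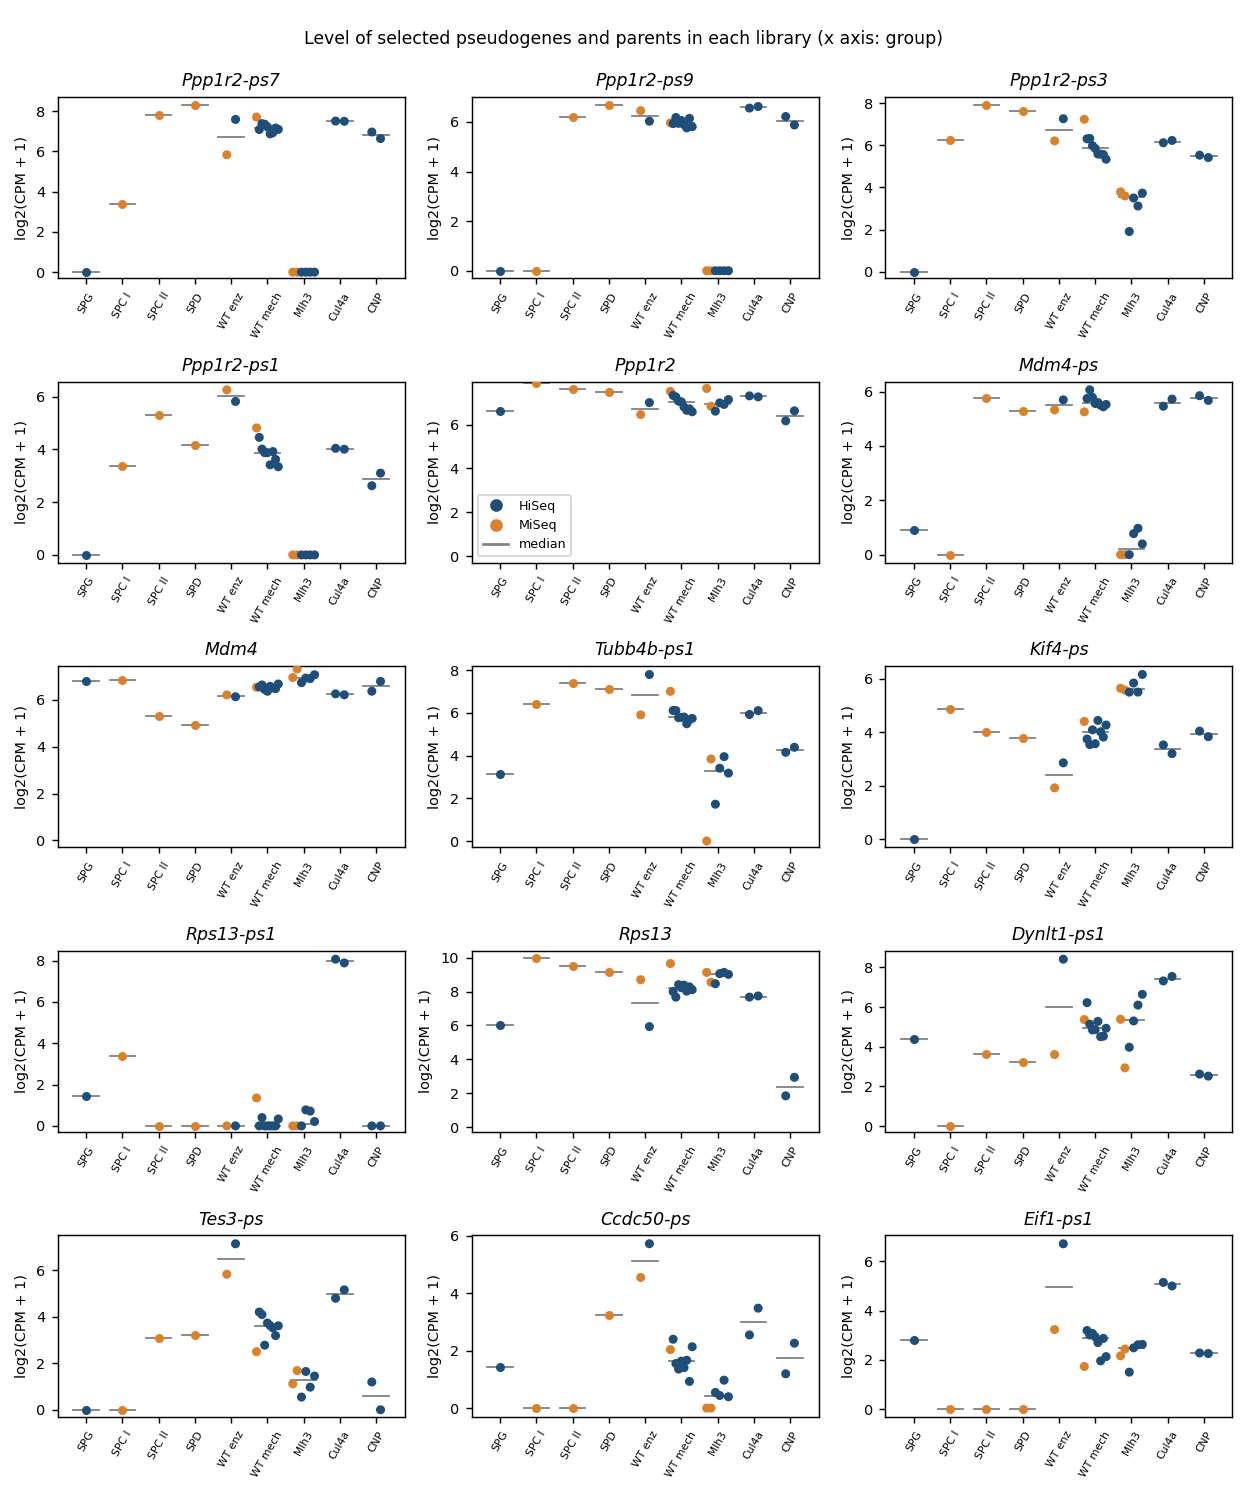
Level, as log2(CPM + 1), of 12 pseudogenes and of the parents Ppp1r2, Mdm4 and Rps13 in each library by group (SPG, spermatogonia; SPC, spermatocytes; SPD, spermatids; enz, enzymatic; mech, mechanical), with 1 point per library coloured by platform and a grey line at the group median. Ppp1r2-ps7, Ppp1r2-ps9 and Ppp1r2-ps1 are at 0 in all 6 Mlh3 libraries, and Rps13-ps1 is high in the 2 Cul4a libraries.

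Where in germ cell development these copies lay was read from barcodes of the 9 WT mechanical libraries that markers put in a pachytene, round spermatid or elongating spermatid range; no marker is a pseudogene. The elongating markers held a median of 0.494% of UMIs in barcodes of the pachytene range, 2.68% in the round range and 13.3% in the elongating range, and the part of free or mixed-in spermatid RNA in the levels below was not tested. Ranges are stretches of a score and not cell types: 1340, 2360 and 2584 of 24895 barcodes fell in them, and 1090, 1986 and 1231 barcodes lay near the limit, at 1.5 to 2.5 times the next list on either side of it, and 73.0% of barcodes were in no range. Ppp1r2-ps7 followed the order of these shares, with a median over libraries of 15.3 CPM in the pachytene, 113 CPM in the round and 421 CPM in the elongating range, and the lowest elongating library (374 CPM) lay above the highest pachytene library (30.0 CPM). Its log2 fold difference, elongating against pachytene with the library as block, was 6.13 ± 0.16. Ppp1r2-ps9 followed the same order at 7.69, 77.0 and 141 CPM (5.01 ± 0.21, adjusted p = 4.79e-123). Ppp1r2-ps3 was about as high in the round as in the elongating range, with medians of 14.98, 87.2 and 85.3 CPM, and Tubb4b-ps1 gave 9.99, 109 and 89.4 CPM (3.55 ± 0.22 and 4.61 ± 0.24, adjusted p = 9.78e-59 and 2.38e-80). The parents were flat or falling in CPM, Ppp1r2 at 141, 152 and 93.9 CPM and Tubb4b at 927, 925 and 784 CPM. With TMM scaling both parents were higher in the elongating range (0.70 ± 0.14 and 0.85 ± 0.08), a direction that turns in CPM.

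Mdm4-ps was highest in the round spermatid range: medians of 8.10, 116 and 13.8 CPM, with every library at 75.1 CPM or more in the round range and at 25.3 CPM or less in the other two. In CPM, Mdm4 was highest in the pachytene range, at 118, 70.2 and 52.8 CPM. Library totals moved the median gene by -1.14 (log2) against TMM scaling, so its fall to the elongating range depends on the scaling. Smek3-ps shared the round maximum at 2.19, 18.0 and 0 CPM. Kif4-ps was highest in the pachytene range, at 44.9, 2.65 and 4.06 CPM, with no overlap between pachytene (23.6 to 70.3 CPM) and elongating libraries (0 to 8.25 CPM) and a log2 fold difference of -2.12 ± 0.39 (adjusted p = 2.29e-07). Vmn2r-ps54 was highest in the elongating range, at 0, 5.64 and 27.7 CPM (4.85 ± 0.46, adjusted p = 1.48e-25), and Klk1b7-ps was at 3.45, 46.2 and 71.5 CPM (5.01 ± 0.31, adjusted p = 1.75e-57).

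Of 88 pseudogenes with enough UMIs, 26 were higher and 5 lower in the elongating range (29.5% and 5.68%), beside 31.8% and 24.1% of all 13756 genes tested. Of 410 unnamed pseudogenes tested, 26.1% were higher and 6.34% lower. Of the ribosomal copies, 4 of 36 were higher, against 38 of 53 ribosomal parents, and 21 of 51 other copies. Where a copy was higher and its parent was tested, the parent was higher in 16 pairs and not called in 2. Scaling by library totals moved the median of all genes by -1.14 and the split from 26 higher and 5 lower to 19 higher and 17 lower, and that of the 53 ribosomal parents turned from 38 higher and 8 lower to 4 higher and 32 lower. In CPM, Rps13 had medians of 381, 277 and 256 CPM and Rpl14 of 169, 21.2 and 33.8 CPM in the pachytene, round and elongating ranges. With library totals Mdm4-ps no longer passed for elongating against pachytene (0.60, adjusted p = 0.167).

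**Figure D4:**
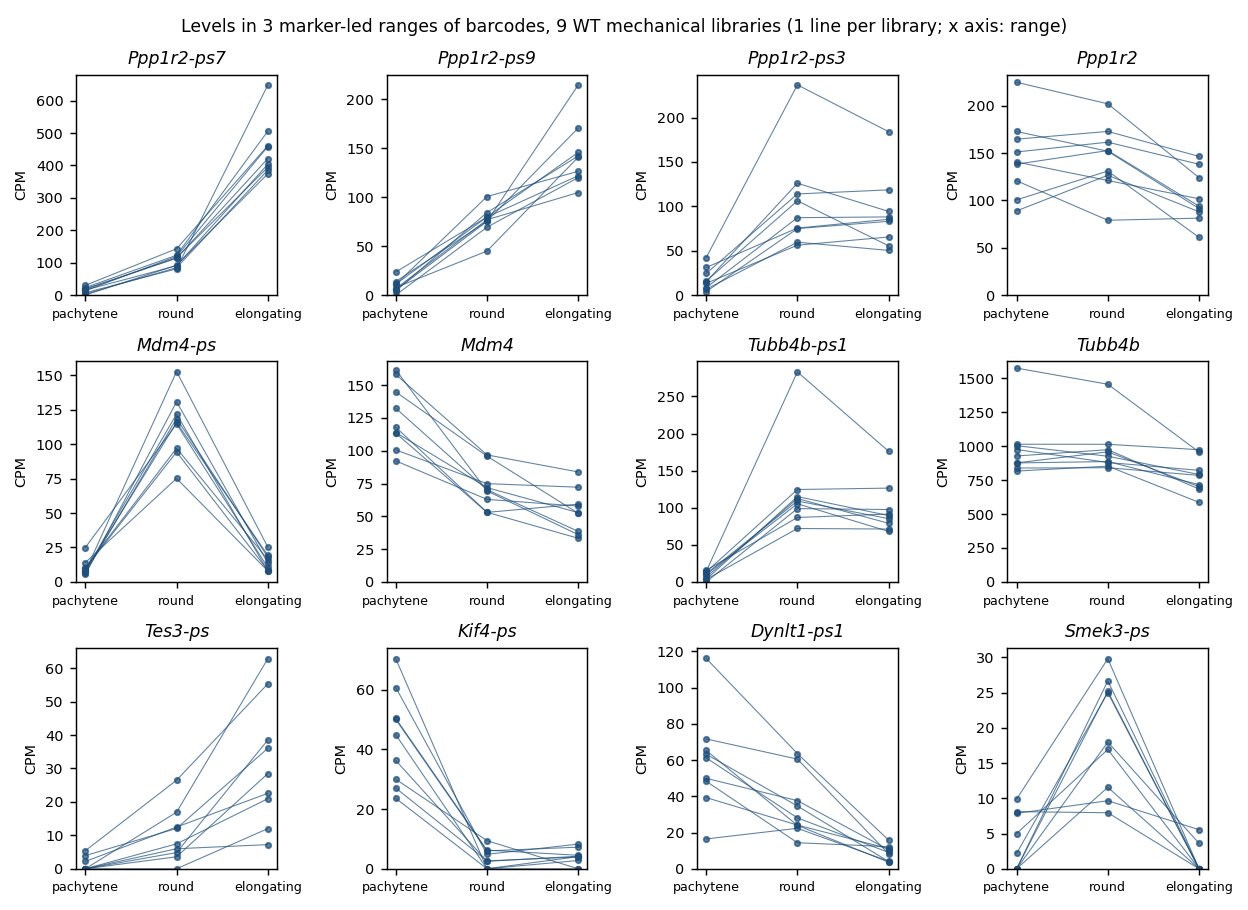
Level in CPM of 9 pseudogenes and of the parents Ppp1r2, Mdm4 and Tubb4b in the pachytene, round spermatid and elongating spermatid ranges of barcodes, with 1 line per WT mechanical library. Ppp1r2-ps7 and Ppp1r2-ps9 climb to the elongating range, Mdm4-ps peaks in the round range and Kif4-ps is highest in the pachytene range.

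The sorted populations, 1 library each and so without a test, were chosen by Hoechst staining or GFP in place of markers. The library labelled secondary spermatocytes held all 10 elongating spermatid markers at 5.98% of UMIs, more than any WT mechanical library, and 33 round and 23 elongating range barcodes of 154, beside 6 in the pachytene range, and all 7 Leydig markers at 0.176%. The elongating markers held 0.880% in primary spermatocytes and 11.2% in spermatids, and their part in the values was not tested. Intervals are exact Poisson and cover counting error only. Ppp1r2-ps7 had 0 UMIs in spermatogonia and 1 in primary spermatocytes, and lay at 225 CPM (95% interval 171 to 290) in secondary spermatocytes and 312 CPM (245 to 392) in spermatids. Mdm4-ps was at 53.4 CPM (29.2 to 89.6) and 37.9 CPM (17.4 to 72.0) in the last 2, and had 1 UMI in spermatogonia, against 130 UMIs of Mdm4 there. In secondary spermatocytes and spermatids it took 58.3% and 56.2% of the pair's UMIs. That is 14 UMIs against 10 of Mdm4 and 9 against 7, too few to show whether copy or parent is higher. Spermatogonia held Kif4 at 84.7 CPM (68.9 to 103) and no UMI of Kif4-ps, which allows up to 2.57 CPM by a floor of 3 counts. The other populations held 3, 4 and 3 UMIs of Kif4-ps and none of Kif4. By the same floor of 3 counts Kif4 can be about as high there as Kif4-ps, so these counts cannot show which of the 2 is higher. Summed over all ribosomal copies, sorted spermatogonia were at 1469 CPM, the highest of all libraries, with WT enzymatic 2 next at 741 CPM. Among the copies highest there were Rpl14-ps1 at 325 CPM (293 to 360) beside Rpl14 at 1636 CPM, and Rps24-ps3 at 137 CPM (117 to 160) beside Rps24 at 1652 CPM. In the WT mechanical libraries these copies were at 1.93 to 4.27 CPM and 2.33 to 22.1 CPM, and in WT enzymatic 1 and 2, also dissociated with enzymes, at 5.60 and 26.8 CPM and at 36.4 and 72.4 CPM. The sorted spermatogonia library also held all 9 Sertoli markers at 0.123% of UMIs, all 9 telocyte markers at 0.0159% and mitochondrial transcripts at 4.55%. Each was above every WT mechanical library, and their part was not tested.

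The cullin gene Cul4a serves in a ubiquitin ligase complex, and this comparison asks what differs in testes labelled Cul4a-/-. Rps13-ps1 was at 267 and 236 CPM in Cul4a 1 and 2 and at no more than 1.55 CPM in any other whole-testis library. It held 4892 UMIs in Cul4a-/-, against 4 in WT mechanical libraries and 5 in Mlh3-/-. Rps13 itself was at 202 and 213 CPM in Cul4a-/-, at the low end of the WT mechanical range of 202 to 803 CPM, so the copy took 56.9% and 52.6% of the pair there and at most 0.19% in WT mechanical libraries. Rps13-ps1 was proposed for this pattern, and its values are a description. The pair differed at 2 bases over the whole coding sequence, 82.8% of its 50-base stretches occurred in the parent, and the tables hold no read positions. Other ribosomal copies took smaller shares in Cul4a-/-, Rpl10a-ps1 23.1% and 17.2% and Rpl14-ps1 8.94% and 10.1%. In WT mechanical libraries Rpl10a-ps1 held 0 to 5 UMIs beside 15 to 52 of Rpl10a. With 5 beside 19 UMIs in WT mechanical 6, its share there overlapped that in Cul4a-/-. Rpl14-ps1 held 5 to 12 UMIs in WT mechanical libraries beside 183 to 343 of Rpl14.

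All 7 Leydig markers held 0.0499% and 0.0614% of UMIs in Cul4a 1 and 2 against 0.00896% to 0.0390% in WT mechanical libraries, and the spermatogonial markers (9 of 9 detected, 5 to 9 in WT mechanical libraries) 0.00523% and 0.00497% against 0.00179% to 0.00355%. Macrophage markers (8 and 9 of 10 detected) held 0.00417% and 0.00453% against 0.00233% to 0.00367%. The part of these markers in the results was not tested. Many other copies were moderately higher in Cul4a-/-. Eif1-ps1 was at 34.4 and 31.0 CPM against 2.33 to 8.15 CPM (median 6.33 CPM), a log2 fold difference of 2.42 ± 0.27 (adjusted p = 5.59e-07), while Eif1 was at 875 and 920 CPM against 512 to 1899 CPM (0.14 ± 0.35, adjusted p = 0.860). Tpt1-ps3, identical in coding sequence to the gene of the translationally controlled tumour protein, was at 23.5 and 26.7 CPM against 1.38 to 8.93 CPM (2.47 ± 0.38, adjusted p = 1.19e-04), and Tpt1 did not pass (0.18 ± 0.32, adjusted p = 0.800). Spcs2-ps, a copy of a signal peptidase subunit gene, was at 15.5 and 16.4 CPM against 1.17 to 5.05 CPM (2.29 ± 0.35, adjusted p = 9.83e-05). Among ribosomal copies, Rpl14-ps1 was at 18.4 CPM in both libraries against 1.93 to 4.27 CPM (2.59 ± 0.26, adjusted p = 7.28e-08), and Rpl14 rose by less (0.88 ± 0.23, adjusted p = 0.0202). Rpsa-ps10, Rpl21-ps8 and Rpl10a-ps1 rose by 2.11 ± 0.33, 2.87 ± 0.45 and 2.82 ± 0.46. Of their parents, Rpl10a was called higher too (1.37, adjusted p = 0.0159). Rpsa (0.66, adjusted p = 0.154) and Rpl21 (0.41, adjusted p = 0.507) did not pass. Vmn2r-ps54 fell by 2.24 on the log2 scale (SE 0.43, adjusted p = 2.32e-03), to 3.10 and 0.82 CPM from 6.65 to 10.7 CPM, and did not pass without Cul4a 2 (adjusted p = 0.139).

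Of 311 pseudogenes, 67 were higher and 3 lower in Cul4a-/-, beside 4.16% higher and 1.32% lower of all genes. In 62 of the 67, and for all 3 lower ones, the libraries of the groups did not overlap, beside 3.88% higher and 1.14% lower of all genes tested; of all genes called, 93.4% of the higher and 85.9% of the lower did not overlap either. The median log2 fold difference was 1.37, against 0.16 over all genes, 0.34 over the parents and 1.24 over the unnamed pseudogenes, of which 303 of 1660 tested were higher and 8 lower. The parent was also higher for 3 of the 67 and not called for 59 (9 of 121 parents were higher in all, and 22 with library totals). In 217 of 256 pairs the fold difference of the copy lay above that of its parent. These pairs share 121 parents, and a copy that passed 10 UMIs only through the Cul4a-/- libraries lies above its parent by its selection. The count of pairs was not repeated without such copies and is a description. Without Cul4a 2 the count of higher copies was 24 and without Cul4a 1 it was 28, with 1 lower in each. Since the deep Cul4a-/- libraries can carry a copy over the threshold of 10 UMIs, the count was repeated over the 149 copies with 10 UMIs in WT mechanical libraries: 46 were higher and 3 lower, with a median of 1.17.

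**Figure D5:**
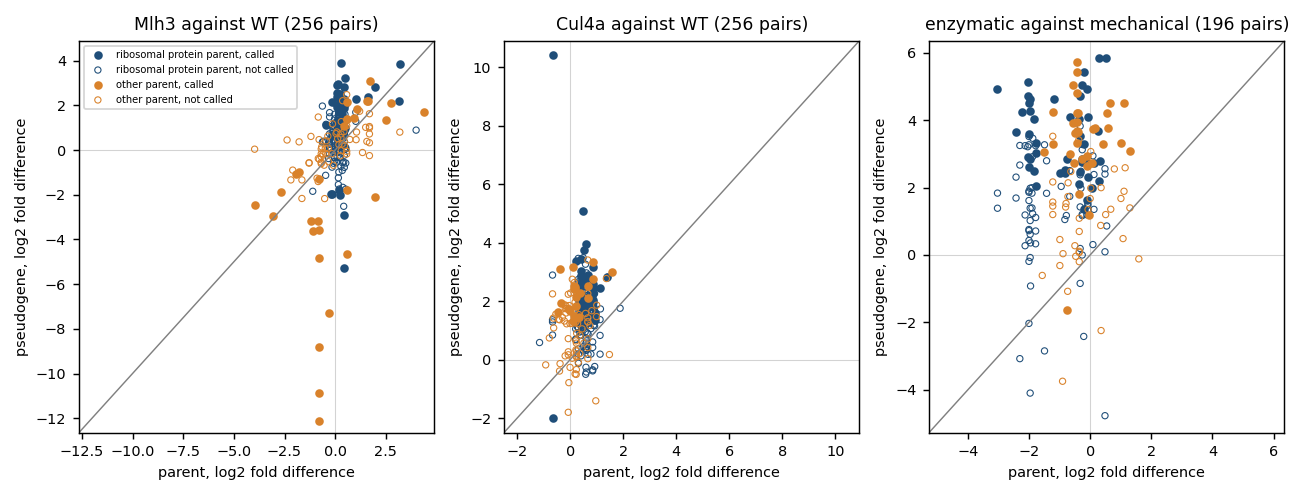
Log2 fold difference of each pseudogene against that of its parent for Mlh3 and Cul4a against WT and for enzymatic against mechanical dissociation; each point is 1 pair, filled where the pseudogene passed an adjusted p of 0.05, with a grey line of equal fold difference. Most pairs lie above the line for Cul4a (217 of 256) and for enzymatic dissociation (182 of 196). Pairs share parents, and a copy can pass the UMI threshold through the group where it is high, so both counts are descriptions.

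Dissociation was compared within WT, 2 enzymatic against 9 mechanical libraries. Of 239 copies tested 85 were higher and 152 were not called, and most of these calls rested on WT enzymatic 2. Spermatogonial markers (4 and 6 of 9 detected) held 0.00588% and 0.00563% of UMIs in WT enzymatic 1 and 2 against 0.00179% to 0.00355% in mechanical libraries, leptotene and zygotene markers (7 and 10 of 11) 0.111% and 0.0816% against 0.0522% to 0.0710%, and Leydig markers (0 and 4 of 7) 0% and 0.00599% against 0.00896% to 0.0390%. Sertoli markers (9 of 9 in both) held 0.0162% and 0.0494% against 0.0147% to 0.0303%. Elongating markers (10 of 10) held 3.76% and 5.85% against 3.03% to 5.42%, and pachytene markers (10 of 10) 0.787% and 0.493% against 0.527% to 0.708%. The part of these markers in the results was not tested. Eif1-ps1 was at 8.40 and 104 CPM in WT enzymatic 1 and 2 against 2.33 to 8.15 CPM, a log2 fold difference of 3.96 ± 0.29 (adjusted p = 1.47e-08), with Eif1 at -0.41 ± 0.24 (adjusted p = 0.292). Rps24-ps3 was at 36.4 and 72.4 CPM against 2.33 to 22.1 CPM (2.18 ± 0.27, adjusted p = 8.96e-06) and Vdac3-ps1, a copy of a mitochondrial outer membrane channel gene, at 16.8 and 33.1 CPM against 2.74 to 6.08 CPM (2.64 ± 0.34, adjusted p = 1.92e-05). Rpl13a-ps1 was at 8.40 and 23.2 CPM against 0 to 0.78 CPM (5.86 ± 0.56, adjusted p = 4.37e-07). Some pairs went opposite ways: Rps12-ps10 was at 2.80 and 22.3 CPM against 0 to 1.94 CPM (4.72 ± 0.58, adjusted p = 8.96e-06). Rps12 fell by 2.04 on the log2 scale (SE 0.35, adjusted p = 3.51e-04), to 30.4 CPM in WT enzymatic 2 but 372 CPM in WT enzymatic 1. Leaving out WT enzymatic 2 leaves 1 enzymatic library, so only log2 fold differences are given for it. They were -0.94 for Rps12, 1.66 for Eif1-ps1, 1.67 for Vdac3-ps1, 7.29 for Rpl13a-ps1 and 5.73 for Rps12-ps10. The 2 lower copies were Gsdmcl-ps, of the gasdermins (-0.88 ± 0.27, adjusted p = 0.0286), and Kif4-ps (-1.64 ± 0.50, adjusted p = 0.0280). Neither passed with DESeq2 (-0.76 and -1.55, adjusted p = 0.0871 and 0.0646) or without WT mechanical 3 (-0.66 and -1.30, adjusted p = 0.126 and 0.127). WT mechanical 3 and WT enzymatic 1 are the only MiSeq libraries of this fit. Leaving out either therefore leaves the same HiSeq contrast, and without WT enzymatic 1 the values were again -0.66 and -1.30. Without WT enzymatic 2 they were -1.87 and -2.997.

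The counts of 85 higher and 2 lower stood beside 6.98% and 7.53% of all 19584 genes tested, and the median log2 fold difference was 1.98, against -0.05 over all genes. Among the parents 7 of 120 were higher and 36 lower, 26 of the lower ones ribosomal. The median log2 fold difference of the ribosomal parents was -0.49 without WT enzymatic 1 and -0.92 without WT enzymatic 2, each with 1 enzymatic library left. The summed ribosomal parents were at 12854 CPM in WT enzymatic 1, a MiSeq library, against 21111 CPM in WT mechanical 3, the only MiSeq mechanical library. In WT enzymatic 2, a HiSeq library, they were at 7405 CPM, within the 7014 to 10057 CPM of the HiSeq mechanical libraries. Unnamed pseudogenes gave 479 of 1285 higher and 4 lower, with a median of 2.26. The parent of a higher copy was lower in 28 pairs, higher in 3 and not called in 47. WT enzymatic 2 carried most of these calls: all 85 copies lay above every mechanical library in it, against 35 in WT enzymatic 1, where 43 had no UMI. WT enzymatic 1 held only 357235 UMIs, and the highest mechanical values of these copies had a median of 1.61 CPM. Without WT enzymatic 2 the fit sets WT enzymatic 1 against WT mechanical 3 alone, the other MiSeq library. That fit cannot show whether WT enzymatic 1 shares these differences. The summed level of the ribosomal copies was 563 CPM in WT enzymatic 1 and 741 CPM in WT enzymatic 2 against 95.6 to 213 CPM. Over the 149 copies with at least 10 UMIs in the mechanical libraries, 56 were higher and 2 lower, with a median of 1.40.

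Dynlt1-ps1, Tes3-ps and Ccdc50-ps were proposed with their patterns known, and their values are descriptions. Dynlt1-ps1 was at 340 CPM in WT enzymatic 2 but at 11.2 CPM in WT enzymatic 1, below all mechanical libraries (21.7 to 73.7 CPM), at 159 and 185 CPM in Cul4a-/- and at 5.16 and 4.74 CPM in CNP. Of the genes of the Dynlt1 cluster on chromosome 17, Dynlt1c, its best match, was at no more than 8.15 CPM in any library, whereas Dynlt1a was at 85.5 to 315 CPM and Dynlt1f at 116 to 376 CPM in WT mechanical libraries, and Dynlt1b at 173 CPM in WT enzymatic 2 and 2.80 CPM in WT enzymatic 1. In the ranges Dynlt1-ps1 had medians of 61.2 CPM in pachytene, 28.1 CPM in round and 9.02 CPM in elongating barcodes. Tes3-ps was at 56.0 and 140 CPM in WT enzymatic, 26.8 and 34.8 CPM in Cul4a-/-, 4.66 to 17.5 CPM in WT mechanical, 0.46 to 2.22 CPM in Mlh3-/- and 1.29 and 0 CPM in CNP libraries. It took 11.9% and 16.8% of the UMIs of itself and Dcun1d1 in the enzymatic libraries, 11.003% and 11.3% in Cul4a-/- and 0.92% to 6.11% in WT mechanical libraries. Ccdc50-ps was at 22.4 and 51.8 CPM in WT enzymatic, 4.85 and 10.2 CPM in Cul4a-/- and 0.91 to 4.27 CPM in WT mechanical libraries, while Ccdc50 was at 361 and 405 CPM, 166 and 200 CPM and 214 to 283 CPM. Ccdc50 was at 31.9 to 87.0 CPM in Mlh3-/-, below all WT mechanical libraries, and no Mlh3-/- library held Ccdc50-ps above 0.96 CPM.

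In CNP, no copy was higher and 3 were lower, beside 0.129% higher and 0.984% lower of all genes by edgeR; at an unadjusted p under 0.05 the higher count was 7, and by DESeq2 it was 0. The 3 include Tes3-ps and Dynlt1-ps1, which the selection rule names and whose calls are no test. The other, Tubb4b-ps1, was at 16.8 and 19.9 CPM against 43.8 to 127 CPM, a log2 fold difference of -1.88 ± 0.47 (adjusted p = 0.0384). It did not pass with library totals (-1.65, adjusted p = 0.0885), filterByExpr (-1.78, adjusted p = 0.0714), no filter (-1.88, adjusted p = 0.0927) or barcodes of at least 200 UMIs (-1.90, adjusted p = 0.0503), nor without CNP 1 (-1.77, adjusted p = 0.266), CNP 2 (-2.03, adjusted p = 0.728) or any 1 of WT mechanical 4, 5, 6, 7, 8 and 11 (-1.91 to -1.85, adjusted p = 0.0509 to 0.0586). Of the parents 43 of 121 were lower, 35 of them among the 53 ribosomal parents, whose median was -2.51 on the log2 scale against -1.21 for their copies; without CNP 1 and without CNP 2, 28 and 25 parents were lower, 25 and 23 of them ribosomal. Pachytene markers (10 of 10 detected) held 0.779% and 0.889% of UMIs in CNP 1 and 2 against 0.527% to 0.708% in WT mechanical libraries, leptotene and zygotene markers (9 and 10 of 11) 0.0784% and 0.0775% against 0.0522% to 0.0710%, and spermatogonial markers (7 of 9) 0.00555% and 0.00408% against 0.00179% to 0.00355%, and their part was not tested. Without CNP 2 none of the 3 copies was called, and without CNP 1, or without any 1 of WT mechanical 4, 5, 6, 7, 8 and 11, only 1 was.

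Sequencing platform was a batch within WT and Mlh3-/-. On the MiSeq 6 copies were higher and 0 lower, beside 0.164% and 0.0561% of all genes by edgeR; 8 were lower at an unadjusted p under 0.05 and 0 by DESeq2. The 6, named after their values were seen, were Rpl17-ps10, Rpl31-ps8, Rpl21-ps15, Rpl34-ps1, Rpl35a-ps2 and Ppp1r2-ps6, and no parent of theirs was called. Rpl31-ps8 was at 13.2 CPM in WT mechanical 3 against 0.39 to 3.62 CPM in the other WT mechanical libraries, and at 32.6 and 11.1 CPM in Mlh3 1 and 2 against 3.15 to 11.03 CPM (2.03 ± 0.44, adjusted p = 0.0357). Rpl17-ps10 gave 6.21 CPM against 0 to 0.64 CPM, and 5.82 and 2.22 CPM against 0.46 to 1.10 CPM (3.03 ± 0.65, adjusted p = 0.0323). Neither passed with no filter (2.03 and 3.03, adjusted p = 0.0792 and 0.0663), without WT mechanical 3 (1.46 and 1.87, adjusted p = 0.188 and 0.311), without WT mechanical 8 (2.00 and 3.01, adjusted p = 0.0585 and 0.0528) or without Mlh3 1 (1.95 and 3.27, adjusted p = 0.140 and 0.0616), nor did Rpl31-ps8 without WT mechanical 7, WT mechanical 11 or Mlh3 6 (adjusted p = 0.0515, 0.0598 and 0.0674). Without WT mechanical 3 the count was 1, without WT mechanical 8 or Mlh3 1 it was 3, and without Mlh3 2 or Mlh3 3 it was 12 and 11.

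Several abundant copies had no parent row. Ppp4r1l-ps, related to a regulatory subunit gene of protein phosphatase 4, held 6252 UMIs and was at 85.1 to 123 CPM in WT mechanical, 47.8 to 120 CPM in Mlh3-/-, 124 and 115 CPM in Cul4a-/- and 87.7 and 72.0 CPM in CNP libraries. Its difference in Mlh3-/- was -1.10 ± 0.17 (adjusted p = 1.62e-06) and did not pass with library totals (-0.36, adjusted p = 0.0684). The secretoglobin copies Scgb2b23-ps (4322 UMIs) and Scgb2b22-ps (1332 UMIs) overlapped between WT mechanical and Mlh3-/- libraries, at 36.7 to 79.2 CPM against 28.8 to 117 CPM and at 10.3 to 29.5 CPM against 6.66 to 24.8 CPM. The Cul4a-/- libraries differed from each other in both copies, at 96.4 and 40.3 CPM and at 39.3 and 15.7 CPM. Gsdmcl-ps was at 34.8 to 51.2 CPM in WT mechanical, 41.8 and 37.9 CPM in Cul4a-/- and 41.3 and 40.8 CPM in CNP libraries, and was lower in Mlh3-/- (17.5 to 42.3 CPM, -1.21 ± 0.18, adjusted p = 1.01e-06).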

How the data were processed

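The values are UMI counts per gene and cell barcode, deposited by the authors as 1 table per library and not normalized. Per the labels and the study's methods, the authors demultiplexed reads with bcl2fastq, ran the Drop-seq pipeline, aligned with STAR 2.5.3a to mm10 (GRCm38) and counted UMIs. Which library ran on which sequencer was taken from the study's sample list.

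Counts were summed over all deposited barcodes of a library and given as CPM. The strains and the platform were fitted over 19 mechanical whole-testis libraries (strain and platform as terms) and dissociation over 11 WT libraries, with edgeR 4.0.16 quasi-likelihood tests in R 4.3.3, TMM scaling, genes of at least 5 UMIs over the fit, two-sided p-values adjusted by Benjamini-Hochberg over all genes tested, and a threshold of 0.05. Barcodes entered a range where its markers held at least 3 UMIs and at least 2 times the level of the next list. No doublet caller was run. On simulated counts, changes of 2 (log2) were recovered for 94% of genes for Mlh3-/- and Cul4a-/-, 71.5% for CNP, 77.5% for the platform, 83.5% for dissociation and 100% for the ranges. These changes were placed only in genes of at least 100 UMIs over the fit. The median pseudogene held 45 UMIs over all libraries, so the rates do not apply to most of the pseudogenes. Identity came from BLAST+ 2.17.0 against GENCODE vM21 transcripts (e-value limit 1e-10). DESeq2 1.42.0 and other settings were alternatives.

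The named copies are the 4 of the selection rule, the 15 with the most UMIs, up to 8 per comparison by smallest adjusted p with groups that do not overlap, and their parents. The members and lists were chosen with earlier results of these data known. The study describes the WT libraries as coming from 11 animals; for the mutant libraries the labels do not name separate animals, so the spread between these may in part be technical.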

Additional observations from a re-analysis of the deposited data

Results flagged for a closer look

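Within groups of 4 to 10 libraries, 12 of 66 sets of values held a library far from the others by Dixon's criterion, where chance gives about 1 in 20. In WT mechanical 3, a MiSeq library, the summed level of all named pseudogenes was 1375 CPM (next library 1125 CPM) and that of the ribosomal copies 213 CPM (next 152 CPM). The same library was highest for Ppp1r2-ps3 at 149 CPM (next 79.0 CPM), Tubb4b-ps1 at 127 CPM (next 67.9 CPM), Rpl31-ps8 at 13.2 CPM (next 3.62 CPM), Rpl17-ps10 at 6.21 CPM (8 UMIs) and Rps13-ps1 at 1.55 CPM (2 UMIs), and lowest for Rps24-ps3 at 2.33 CPM (3 UMIs, next 12.2 CPM). In Mlh3 1, also a MiSeq library, Tpt1-ps3 was at 36.1 CPM (next 6.76 CPM), Rpl31-ps8 at 32.6 CPM (next 11.1 CPM) and Rpl17-ps10 at 5.82 CPM (5 UMIs, next 2.22 CPM). Dynlt1-ps1 was at 73.7 CPM in WT mechanical 4, a HiSeq library (next 40.4 CPM).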

How the results depend on the processing

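Counts of called copies depended on the filter, scaling and libraries. Named copies were chosen in part by many UMIs, a small adjusted p and groups that do not overlap. The shares of their values that kept direction and call, given below, are in part set by that choice. For Mlh3-/-, the count of higher copies was 111 with library totals, 35 with filterByExpr and 27 over copies with at least 10 UMIs in WT mechanical libraries (an alternative chosen after seeing the data), and of lower copies 23 with filterByExpr. For Cul4a-/-, 39 were higher with filterByExpr. For CNP, 1 was lower with library totals, filterByExpr, no filter or barcodes of at least 200 UMIs and 50 genes. For the platform, 3 were higher with no filter. For enzymatic dissociation, 33 were higher with filterByExpr and 56 over copies with 10 UMIs in WT mechanical libraries, and 0 were lower with DESeq2 and 1 with library totals or filterByExpr. For the ranges, 7 were higher with filterByExpr, and 3, 17 and 2 lower with DESeq2, library totals and filterByExpr. Leaving out each library gave 38 to 77 higher and 42 to 48 lower for Mlh3-/-, 24 to 68 and 1 to 3 for Cul4a-/-, 0 to 0 and 0 to 3 for CNP, 1 to 12 and 0 to 1 for the platform, 4 to 84 and 0 to 2 for enzymatic dissociation and 22 to 26 and 5 to 7 for the ranges; the fold difference of Tubb4b-ps1 for enzymatic dissociation ran from -1.29 (adjusted p = 0.0349, without WT enzymatic 2) to 1.93 when 1 library was left out. The cause was not tested. In Cul4a-/-, CNP and enzymatic dissociation, leaving out 1 library of the smaller group leaves 1 library in it. Their lowest counts come from such fits, which cannot tell a difference between libraries from a lack of replicates.

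Same-numbered WT and Mlh3-/- libraries did not deviate together (r = 0.04, 0.01, -0.20 and -0.18), so they share only a number. With the replicate block, residual degrees of freedom fell from 14 to 4. Of 34 values of named genes, 20 kept direction and call with it, 11 lost the call, among them those of Rpl14-ps1, Eif1-ps1, Spcs2-ps, Rpsa-ps10, Tpt1-ps3, Rpl21-ps8 and Vmn2r-ps54 in Cul4a-/-, and 3 reversed. In that order, the log2 fold differences of these Cul4a-/- copies with the block were 2.64, 2.78, 6.93, 2.43, 1.82, 7.36 and -1.53. The block gave 26 higher and 25 lower for Mlh3-/-, 13 and 0 for Cul4a-/- and 3 and 0 for CNP. With it, Rpl10a-ps1 (-2.93) and Rps12-ps10 (-0.18) in Cul4a-/- and Tubb4b-ps1 in CNP (2.91) reversed. No Cul4a-/- or CNP library shared a replicate number with a WT mechanical library. With the block, these strains were compared with WT only through the Mlh3-/- libraries of the same numbers, both MiSeq libraries. Their lost calls and reversals therefore cannot show whether the direct comparison with WT is stable.

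Of the values of named genes, 61 of 63 kept direction and side of the threshold with DESeq2, 56 of 63 with library totals, 52 of 54 with filterByExpr, 34 of 34 with HiSeq libraries only and 702 of 755 when 1 library was left out.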
